A study of Mus musculus with 8 samples.

Results

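The Phf11 family genes of the mouse are Phf11a, Phf11b, Phf11c and Phf11d, a cluster of related genes on chromosome 14. They were taken by symbol from the gene table, where 4 of 28431 genes carried these names. The family was chosen by its counts in all 8 libraries, so its levels and changes are given as descriptions, without tests.

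PHF11 proteins carry a zinc-binding PHD-type finger, a fold that in many chromatin proteins contacts histone tails. The human genome has PHF11 beside SETDB2, and human PHF11 has been linked to IgE levels and asthma. In human cells PHF11 binds the single-strand DNA-binding complex RPA and promotes the trimming of broken DNA ends, and in human T cells it promotes Th1 cytokine genes together with NF-kB. The roles of the separate mouse copies are less well known.

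The cells were mouse embryonic stem cells with a MERVL:GFP transgene, grown on gelatin with serum, leukemia inhibitory factor and 2i, and their polyA RNA was sequenced. Every culture was transfected with siRNA on consecutive days, and each of the 4 groups had 2 replicates, named here replicate 0 and replicate 1 after their columns. The si309 group received 10 pmol of siRNA against Chaf1a with 10 pmol of the diced siRNA pool si309, although the label of 1 of its libraries gives no dose. The si308 group received 10 pmol of Chaf1a siRNA with 10 pmol of the pool si308. The group called Chaf1a siRNA, or Chaf1a siRNA alone, got 10 pmol each of Chaf1a siRNA and negative control siRNA, and the negative control group received 20 pmol of negative control siRNA. The histone chaperone CAF-1 has CHAF1A as its largest subunit. Both pools were diced from fragments of mDux, a multi-copy gene for a double homeobox factor of the early embryo. The comparisons ask what CAF-1 depletion changes, and which of these changes differ once mDux is depleted as well. Depletion was transient and measured in bulk RNA, so fewer cells with a transcript and less of it per cell cannot be told apart.

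Library totals were 26042851 to 42375685 gene counts. Chaf1a RNA was 22.5% of the negative control level in the si309 group, 24.8% in the si308 group and 21.3% in the Chaf1a siRNA group. The mDux copy 4933403O03Rik had 5 and 9 counts with si309, 1 and 4 with si308, 256 and 193 with Chaf1a siRNA alone, and 0 and 2 in the negative control. All 10 stem cell markers examined, among them Pou5f1, Sox2 and Nanog, had counts in every group, and their summed level was 4870 to 5340 CPM (read counts scaled to library size with TMM factors) in the 3 depleted groups and 7260 to 7360 CPM in the negative control.

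Phf11a and Phf11b are the closest relatives in the cluster, and the DNA in front of them is shown because their levels below differ. Over their coding bases 804 of 828 aligned positions were identical (97.1%). Identity to Phf11d was 89.1% for Phf11a and 88.5% for Phf11b, and Phf11c shared 84.6% to 85.2% with the other members. The stretches below, from a set of promoter windows (GRCm38.p6, minus strand, 5′ to 3′), are 229 bases each and end directly before the GENCODE start of each gene, at chr14:59297523-59297751 for Phf11a and chr14:59341352-59341580 for Phf11b. Counted from the start that the set uses, they run from -229 to -1 for Phf11a and -250 to -22 for Phf11b. The start used for the Phf11b window thus lies inside the GENCODE gene. RefSeq puts the gene starts inside these stretches, at 59297564 for Phf11a and 59341388 for Phf11b. The 3′ ends of the stretches, with the last capital, thus lie within the RefSeq genes. Capitals mark the bases that differ.
Phf11a: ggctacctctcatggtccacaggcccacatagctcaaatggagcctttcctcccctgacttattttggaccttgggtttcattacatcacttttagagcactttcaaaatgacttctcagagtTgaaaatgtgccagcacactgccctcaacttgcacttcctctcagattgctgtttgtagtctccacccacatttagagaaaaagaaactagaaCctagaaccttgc
Phf11b: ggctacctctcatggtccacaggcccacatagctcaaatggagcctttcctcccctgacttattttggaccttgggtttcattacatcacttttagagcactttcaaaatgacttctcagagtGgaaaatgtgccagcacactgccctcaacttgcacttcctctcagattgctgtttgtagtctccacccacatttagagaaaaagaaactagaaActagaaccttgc
Only 2 of the 229 aligned bases differed, T124G and C217A (Phf11a base first, positions counted from the 5′ end of the stretch), and no gap was needed. The promoter window of Phf11d, from 250 bases before to 50 after its start, shared 170 of 266 aligned bases with that of Phf11a (63.9%), and the window of Phf11c could be aligned to it over 4 bases.

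The windows of all 4 genes were searched on both strands for letters related to DUX binding sites. TGATTNAAT was in 0 of the 4 windows and in 0.718% of 32851 promoter windows of the same length. TAANNNAAT was in 0 of the 4 and in 12.3% of all windows. AANNGAAA, the core bound by interferon regulatory factors, occurred once each in Phf11a, Phf11b and Phf11d and in 23.9% of all windows. In the stretches above it reads within the run of a's and g's before the capital near the 3′ end. It is the same in both and lies inside the RefSeq genes. A missing match says only that these letters are not in these windows.

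Reads of 125 bases can tell the 4 genes apart over most of their length. Of the 1230 windows of 125 bases in the annotated Phf11a transcript, 0 occurred in Phf11b, 29 in Phf11c and 22 in Phf11d. The share found anywhere else in the cluster was 2.36% for Phf11a, 6.04% for Phf11b, 4.89% for Phf11c and 3.21% for Phf11d, and 0% was found in annotated transcripts outside it. How the authors counted reads that match several places is not given in the sources used here.

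**Figure D1:**
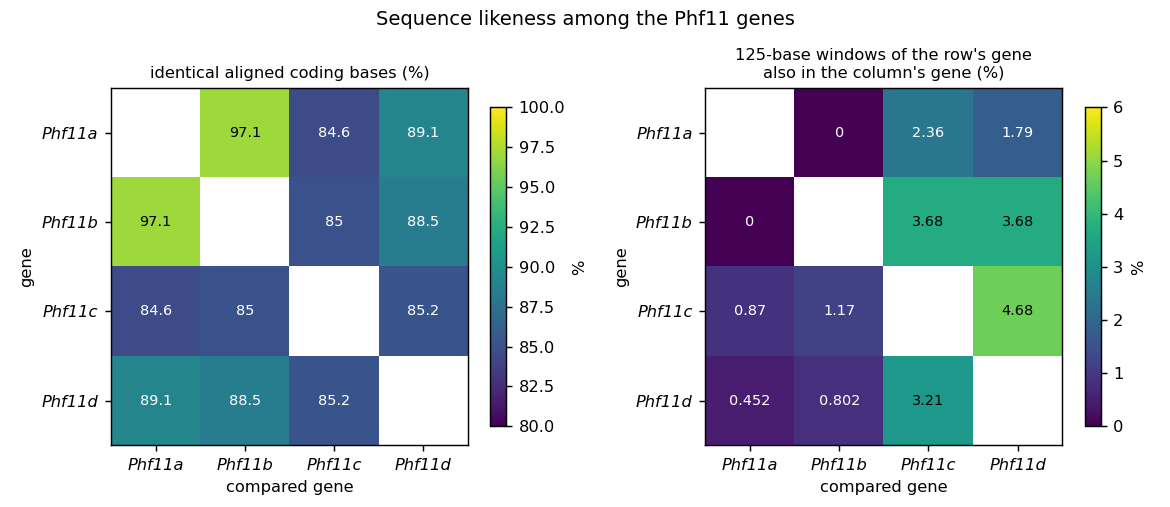
The left panel gives the percentage of identical bases over aligned coding sequence for each pair of Phf11 genes, and the right panel gives the percentage of 125-base windows in the row's transcripts that also occur in the column's transcripts. Phf11a and Phf11b stand out as the closest pair at 97.1%, yet they share 0 windows.

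Phf11a (ENSMUSG00000044703, GRCm38 chromosome 14, 59276913 to 59297522, minus strand, 8 exons) was highest by far with Chaf1a siRNA alone, as the mDux copy was. It had 9 and 8 counts with si309, 1 and 2 with si308, 260 and 235 with Chaf1a siRNA alone, and 0 and 0 in the negative control. Its reads were thus nearly confined to the group with Chaf1a siRNA alone, and the libraries of that group lay far above those of every other group. The level was 8.16 ± 0.96 CPM in the Chaf1a siRNA group (SD, n = 2), and the negative control libraries, at 0 counts, have floors of 0.118 and 0.091 CPM for 3 counts and exact 95% upper limits of 0.145 and 0.112 CPM. Set against this floor of 3 counts per library, Phf11a was at least 78.2-fold higher with Chaf1a siRNA than in the negative control.

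Phf11a was far lower with either pool than with Chaf1a siRNA alone. With si309 it was 0.244 ± 0.059 CPM (SD, n = 2), against 8.16 ± 0.96 CPM with Chaf1a siRNA alone, a 33.8-fold lower rate over the summed counts (95% counting interval 20.9 to 58.5; fitted log2 change -5.07, SE 0.37). With si308 it was 0.039 ± 0.01 CPM, and the 3 counts of that group make the rate 201-fold lower (68.4 to 978). Intervals of this kind cover counting error only and leave out the spread between libraries, and the reads carried no molecular identifiers. Among 17970 genes fitted, 154 had a more negative log2 change than Phf11a with si309 and 166 with si308. These ranks describe and do not test, since Phf11a was chosen with these libraries in view. Its place with si308 rests on 3 counts.

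Phf11a was highest with Chaf1a siRNA and next highest with si309, while si308 and the negative control could not be ordered. Between the pools the libraries with si309 were above those with si308 by a ratio of 5.95, with a wide counting interval of 1.72 to 31.7. Against the negative control, Phf11a was at least 2.33-fold higher with si309. With si308 both groups were at or under the floor of 3 counts, so no fold is given and no difference was detectable at this depth.

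Genes of the two-cell-like state, the early-embryo programme that a few stem cells enter, moved with Phf11a. The summed level of the 10 markers examined, such as Zscan4c, Zscan4d and Zfp352, was 30.4 to 32.3 CPM with si309, 3.91 to 4.54 with si308, 1000 to 1040 with Chaf1a siRNA and 1.22 to 2 in the negative control. Tdpoz4 was at 0 counts with si308, and the others had counts in every group. The part of a change in the number of such cells in the Phf11a values was not tested.

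**Figure D2:**
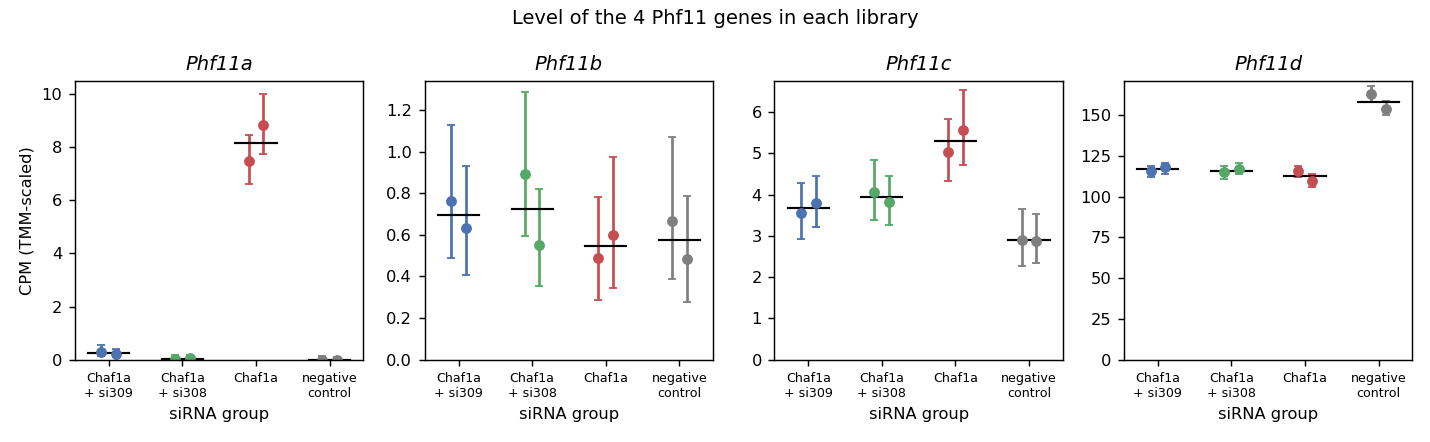
Each panel plots the TMM-scaled CPM of 1 Phf11 gene in every library, with 95% counting intervals, for the si309, si308, Chaf1a siRNA and negative control groups; black lines are group means. Phf11a is high only with Chaf1a siRNA alone (7.49 and 8.84 CPM), whereas Phf11d is highest in the negative control (163 and 154 CPM).

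Phf11b (ENSMUSG00000091649, 59320964 to 59341351, minus strand, 9 exons) stayed low in all groups, although its sequence is so like that of Phf11a. Its counts were 24 and 25 with si309, 28 and 24 with si308, 17 and 16 with Chaf1a siRNA, and 17 and 16 in the negative control. The 2 libraries of si309 lay above both of Chaf1a siRNA alone by little, and all other pairs of groups overlapped. The means were 0.696 ± 0.092, 0.724 ± 0.24, 0.546 ± 0.079 and 0.577 ± 0.13 CPM in the same order (SD, n = 2 each). The log2 change with Chaf1a siRNA against the negative control was -0.07 (SE 0.43), and the counting interval of the ratio, 0.57 to 1.59, lies far below the bound of 78.2 for Phf11a. With si309 the log2 change against Chaf1a siRNA alone was 0.35 (SE 0.40), and with si308 it was 0.39 (SE 0.40). Neighbours in the order si308, si309, negative control and Chaf1a siRNA overlapped in their libraries.

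Phf11c (ENSMUSG00000091144, 59380833 to 59395381, minus strand, 10 exons) showed a smaller change in the same direction as Phf11a. It was at 3.55 and 3.79 CPM with si309, 4.06 and 3.82 with si308, 5.04 and 5.57 with Chaf1a siRNA and 2.91 and 2.88 in the negative control. The Chaf1a siRNA libraries were the highest and those of the negative control the lowest, and the pools lay between them without overlap with either. Against the negative control, the level with Chaf1a siRNA was 1.83-fold higher (fitted log2 change 0.87, SE 0.17). Of 17970 genes fitted, 4424 had a larger log2 change in this comparison, and edgeR called 37.1% of all genes raised. The share of all genes without overlap between these groups was not counted.

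With the pools Phf11c lay between both other groups. The log2 change was -0.52 (SE 0.16) with si309 and -0.43 (SE 0.16) with si308, each against Chaf1a siRNA alone. Set against the negative control, it was 0.34 (SE 0.17) with si309 and 0.44 (SE 0.17) with si308. Between the pools the counting interval of the ratio included 1 (0.939, 0.792 to 1.11).

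Phf11c is the member next to Setdb2, a SET-domain gene related to histone H3 lysine 9 methyltransferases, and RefSeq annotates a read-through gene over both, Gm45935, from 59380833 to 59440880. Setdb2 itself was at 29.1 and 30.8 CPM with si309, 32.2 and 31.1 with si308, 29.1 and 27.5 with Chaf1a siRNA, and 31.6 and 28.8 in the negative control. Its libraries overlapped between the Chaf1a siRNA group and the negative control (log2 change -0.09, SE 0.08, edgeR quasi-likelihood adjusted p = 0.33). The part of read-through transcripts in the Phf11c counts was not tested.

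Phf11d (ENSMUSG00000068245, 59347407 to 59365470, minus strand) was the main member in these cells and was lower in all depleted groups. It had 3647 and 4665 counts with si309, 3591 and 5097 with si308, 4013 and 2923 with Chaf1a siRNA, and 4148 and 5087 in the negative control. Scaled for depth, the 6 depleted libraries lay between 110 and 118 CPM and those of the negative control at 163 and 154 CPM, without overlap. With Chaf1a siRNA the level was 113 ± 4 CPM, against 159 ± 6.1 CPM in the negative control (SD, n = 2 each), a ratio of 0.711 (fitted log2 change -0.49, SE 0.05). In this comparison 3018 of 17970 genes fitted had a more negative log2 change, and edgeR called 30.4% of all genes lowered.

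With the pools Phf11d stayed near the level of Chaf1a siRNA alone. The log2 change was 0.05 (SE 0.05) with si309 and 0.04 (SE 0.05) with si308 against Chaf1a siRNA alone. Against the negative control, the values were -0.44 (SE 0.05) with si309 and -0.45 (SE 0.05) with si308. These comparisons share libraries, so they are not independent of each other. The size depends on scaling: when plain library totals were used, the log2 change with Chaf1a siRNA was -0.33, while the median over all genes moved to 0.22 from 0.06.

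Marker sums of fibroblasts and primitive endoderm also differed between the depleted groups and the negative control. The 7 fibroblast markers summed to 49.2 to 49.3 CPM with si309, 45.9 to 47.5 with si308, 56.9 to 58 with Chaf1a siRNA and 2.64 to 2.71 in the negative control, where Col3a1, Dcn and Postn were at 0 counts. The 7 primitive endoderm markers summed to 30.1 to 30.6, 23.1 to 24.4, 33.1 to 34.8 and 3.43 to 4.75 CPM in the same order, with Sox7 at 0 in the negative control. Blood cell markers, examined because PHF11 is known from lymphocytes, summed to 33.6 to 34.7 CPM with si309 and 35.3 to 38.5 with si308. With Chaf1a siRNA their sum, 28.7 to 28.8 CPM, lay within the 28.5 to 29.5 CPM of the negative control, where Lyz2 was at 0. The part of these cell types in the Phf11 values was not tested.

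Per length of exon, the members differed widely in level. With Chaf1a siRNA, Phf11d was at 25.1 ± 0.88 CPM per kb, Phf11a at 6.03 ± 0.71, Phf11c at 1.53 ± 0.11 and Phf11b at 0.461 ± 0.067 (SD, n = 2 each). Phf11a thus ranked second after Phf11d in that group, while it was below Phf11b in each of the others. In the negative control the levels were 35.3 ± 1.4 CPM per kb for Phf11d, 0.837 ± 0.0053 for Phf11c, 0.487 ± 0.11 for Phf11b and 0 for Phf11a.

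The share of each member in the family RNA differed between the groups. Phf11a held 0.201% ± 0.051 of the counts of the 4 genes with si309, 0.0323% ± 0.0079 with si308, 6.45% ± 0.88 with Chaf1a siRNA and 0% in the negative control (SD, n = 2 each). In the Chaf1a siRNA libraries the exact Clopper-Pearson intervals of this share were 5.15% to 6.55% and 6.23% to 8%. Phf11d held 96.2% ± 0.035, 96.1% ± 0.38, 88.9% ± 1.3 and 97.9% ± 0.008 in the same order, and only the Chaf1a siRNA group lay below 95%.

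Summed over the members, which leaves out how reads were split among them, the level was 121 ± 1.5 CPM with si309, 121 ± 1.4 with si308, 127 ± 2.6 with Chaf1a siRNA and 162 ± 6.3 in the negative control. Its log2 ratio with Chaf1a siRNA to the negative control was -0.35. Against Chaf1a siRNA alone the log2 ratio was -0.06 with si309 and -0.07 with si308.

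**Figure D3:**
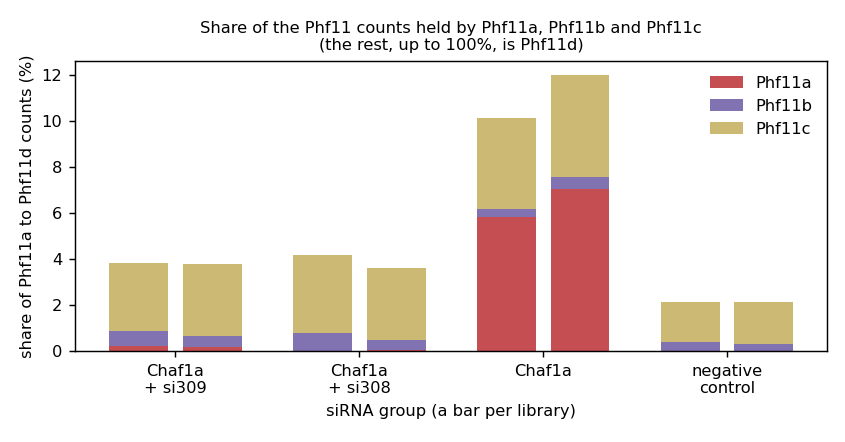
Stacked bars give the percentage of the summed Phf11a to Phf11d counts that Phf11a, Phf11b and Phf11c held in each library, by siRNA group; Phf11d is the rest. Phf11a makes up 5.82% and 7.07% of the counts with Chaf1a siRNA alone and under 0.3% in every other library.

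The neighbours of the cluster, which had no part in the choice of the family, were examined to see whether the whole stretch changed. Of 11 genes in the table within 500 kb of the cluster, 6 passed the filter on low counts. With Chaf1a siRNA against the negative control 3 of the 6 rose and 1 fell at an edgeR quasi-likelihood adjusted p under 0.05, beside 37.1% raised and 30.4% lowered (67.5% called) over all 17970 genes. Their median log2 change was 0.18, beside 0.06 for all genes.

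The tested genes closest to the cluster showed no rise like that of Phf11a. Rcbtb1, which lies 39.6 kb before the cluster and encodes a protein with RCC1 and BTB domains, was at 75.7 and 79.8 CPM with Chaf1a siRNA, against 112 and 110 CPM in the negative control (log2 change -0.51, SE 0.05, adjusted p = 3.4e-08). Setdb2, 6.63 kb after it, gave the values above. Cab39l, 45.6 kb after it and related to the LKB1 partner CAB39, was at 54.2 and 50.6 CPM with Chaf1a siRNA, against 55.3 and 50.8 CPM in the negative control (log2 change -0.01, adjusted p = 0.87).

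The 3 of 6 neighbours that rose lay 164 to 243 kb after the cluster, too few genes to show a pattern of distance. With a window of 1000 kb, 3 of 8 tested neighbours rose and 2 fell. Cdadc1, a cytidine deaminase domain gene 164 kb after the cluster, was raised by 0.38 (SE 0.09, adjusted p = 0.00096), but was not called when Chaf1a siRNA replicate 0 was left out (0.25, adjusted p = 0.057). Shisa2, an attenuator of Wnt and FGF receptors, rose to 7.2 and 8.16 CPM with Chaf1a siRNA, against 2.99 and 2.21 CPM in the negative control (log2 change 1.58, SE 0.18, adjusted p = 6.7e-08). Atp8a2, a phospholipid flippase gene outside the naming rule and chosen after its values were seen, rose at low level to 1.21 and 1.09 CPM, against 0.236 and 0.152 CPM (2.59, SE 0.51, adjusted p = 2.6e-05).

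With the pools few neighbours were called, and their median log2 change against Chaf1a siRNA alone was 0.01 with either pool. Shisa2 was lower with si309 as well but was not called (-0.44, SE 0.15, edgeR adjusted p = 0.071). Against Chaf1a siRNA alone, 1 of 6 was raised with si309, beside 3.24% raised (10.9% called) of all genes, and 1 of 6 was lowered with si308, beside 12.9% lowered (21.8% called). Cab39l was raised with si309 (0.26, SE 0.07, adjusted p = 0.021), but not when Chaf1a siRNA replicate 1 (adjusted p = 0.22), si309 replicate 0 (0.051) or si309 replicate 1 (0.22) was left out. Shisa2 was lowered with si308 (-0.48, SE 0.15, adjusted p = 0.027), and this call was lost without Chaf1a siRNA replicate 1 (0.2) or si308 replicate 0 (0.21) and by DESeq2 (0.12).

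A further relative in the cluster, Gm6904, 16.7 kb before Phf11a, is a pseudogene in RefSeq and shares 95% of 606 aligned coding bases with both Phf11a and Phf11b. It did not pass the filter: it had 0 and 0 counts with si309, 3 and 2 with si308, 2 and 2 with Chaf1a siRNA and 0 and 1 in the negative control. None of its 125-base windows occurred in Phf11a, and 3.23% occurred in Phf11b.

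**Figure D4:**
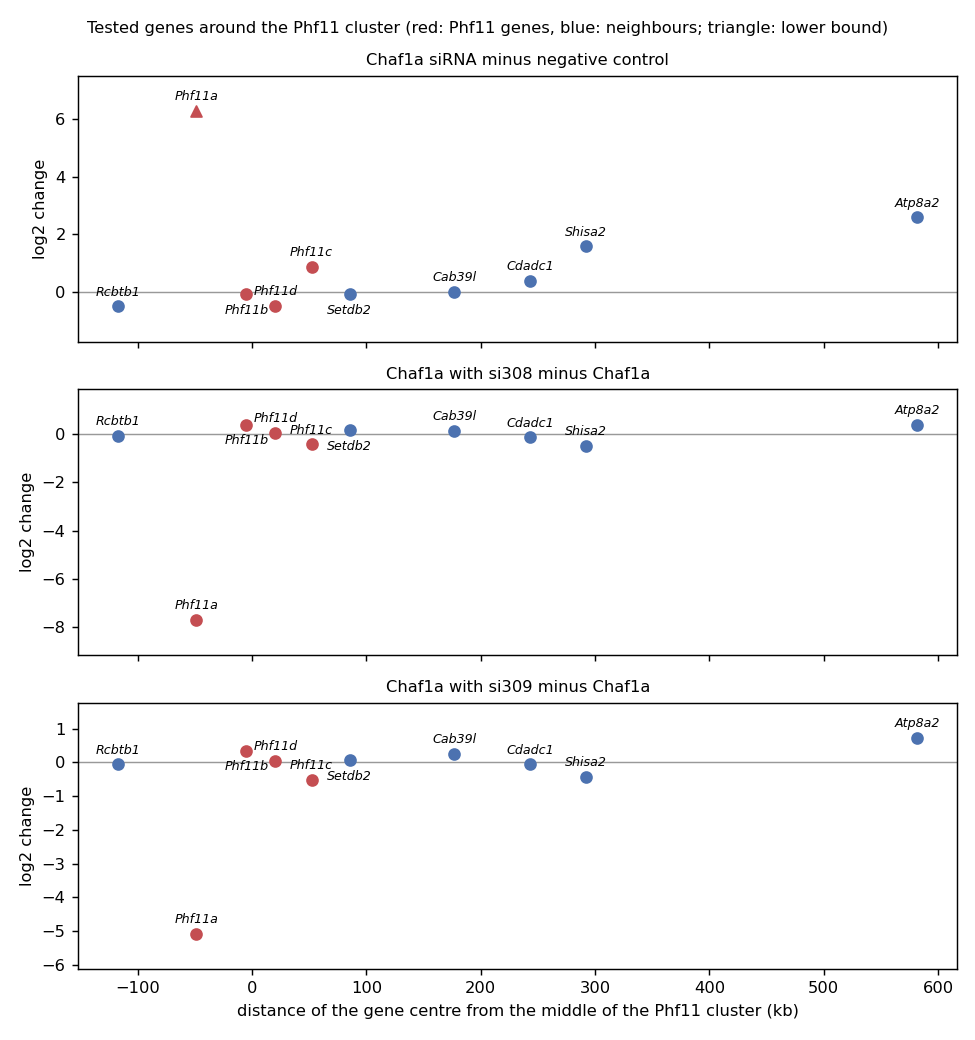
Each panel plots the log2 change of the tested genes around the Phf11 cluster against the distance of their centres from its middle, in kb, for Chaf1a siRNA minus negative control and for each pool minus Chaf1a siRNA; Phf11 genes are red, neighbours blue, and the triangle is the lower bound for Phf11a. Phf11a lies at 6.29 or above, at -7.71 with si308 and at -5.07 with si309, while the nearest tested genes on each side, Rcbtb1 and Setdb2, lie at -0.51 and -0.09 with Chaf1a siRNA.

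Genes that act in the trimming of DNA ends, where human PHF11 works with RPA, were mostly lower after Chaf1a siRNA. Of 23 genes on the list, 23 were tested, 17 fell and 4 rose against the negative control, beside 30.4% lowered and 37.1% raised over all genes, and the median log2 change was -0.32, beside 0.06 for all genes. With library totals 13 fell and 6 rose, with a median of -0.16. The checkpoint kinase gene Chek1 was at 85.8 and 84.1 CPM with Chaf1a siRNA, against 181 and 174 CPM in the negative control (log2 change -1.06, SE 0.05, adjusted p = 7.4e-14).

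Other members of the list fell less or rose. Brca1, a repair gene that favours end resection, was lowered by -0.71 (SE 0.05, adjusted p = 4.7e-11) and the nuclease gene Mre11a by -0.66 (SE 0.05, adjusted p = 5.3e-10). Trp53bp1, whose product limits resection, rose to 137 and 137 CPM, against 89.6 and 89.2 CPM in the negative control (0.61, SE 0.05, adjusted p = 3.5e-10). The genes for RPA moved in different directions, chosen for naming as the partners of human PHF11: Rpa1 by -0.24 and Rpa3 by -0.32, but Rpa2 by 0.23 (adjusted p = 7e-05, 8.6e-05 and 0.00017). The Rpa1 call was lost with library totals (-0.08, adjusted p = 0.12).

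The pools called few of these genes. Against Chaf1a siRNA alone 2 of 23 were lowered with si309, beside 7.61% of all genes, and 2 were raised and 1 lowered with si308, beside 8.92% and 12.9%. Brca2, a gene of recombination repair, was lowered by both pools, with si309 at 142 and 138 CPM, against 170 and 172 CPM with Chaf1a siRNA alone (-0.29, SE 0.05, adjusted p = 0.00058). Its call as lowered with si308 (-0.20, adjusted p = 0.0077) did not hold when Chaf1a siRNA replicate 1 (0.067) or si308 replicate 1 (0.17) was left out. Brca2 had risen with Chaf1a siRNA, against 125 and 121 CPM in the negative control (0.48, SE 0.05, edgeR adjusted p = 7.6e-08). Both pools left it above that control, by 0.19 with si309 (edgeR adjusted p = 0.0037) and 0.28 with si308 (0.00012). The helicase gene Blm was raised with si308, at 165 and 153 CPM, against 133 and 134 CPM (0.25, SE 0.05, adjusted p = 0.002). With si309 Blm was at 149 and 149 CPM and was not called (0.16, SE 0.05, edgeR adjusted p = 0.071). It was called with si309 under library totals (0.036), without the filter (0.019) and with the replicate block (0.048).

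The other genes named for a PHD finger showed no common direction. Of 20 with a Phf symbol, all tested, 7 rose and 6 fell with Chaf1a siRNA against the negative control, a called share of 65% beside 67.5% of all genes (37.1% raised, 30.4% lowered). Their median was 0.01, beside 0.06 for all genes. With library totals 12 rose and 4 fell. Phf20, part of a histone acetyltransferase complex, was at 107 and 107 CPM, against 211 and 206 CPM (-0.96, SE 0.05, adjusted p = 2.5e-13). Phf19, a Polycomb partner, was at 1.99 and 2.33 CPM, against 7.5 and 7.92 CPM (-1.85, SE 0.19, adjusted p = 1.2e-08). Phf15, also known as Jade2, rose by 1 on the log2 scale (SE 0.09, adjusted p = 1.2e-09), and Phf20l1 by 0.41 (SE 0.08, adjusted p = 6.3e-05).

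Against Chaf1a siRNA alone, si309 lowered 2 of the 20, beside 7.61% of all genes. With si308 3 were lowered and 1 raised, beside 12.9% and 8.92% of all genes, so these shares were near the background. The histone demethylase gene Phf8 was lowered with si308, at 61.6 and 59.7 CPM, against 73.7 and 74.7 CPM with Chaf1a siRNA alone (-0.29, SE 0.06, adjusted p = 0.00067). Phf8 had risen with Chaf1a siRNA against the negative control (0.29, SE 0.06, edgeR adjusted p = 0.00013). Its si308 libraries overlapped those of that control, at 59.4 and 61.7 CPM. Phf19 was raised with si308 (0.71, SE 0.20, adjusted p = 0.01), but not when Chaf1a siRNA replicate 0 or si308 replicate 0 was left out (adjusted p = 0.12 for both). From pool to pool, 1 of 20 was called, beside 3.68% of all genes. It was Phf1, at 18.5 and 16.7 CPM with si309, against 12.8 and 14.2 CPM with si308 (0.37, SE 0.10, adjusted p = 0.036), chosen after its values were seen.

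NF-kB genes also went both ways, while the cytokine genes on their list, Ifng, Il2 and Tnf, were not among those tested. Of 16 on the list, 13 were tested, and 5 rose and 5 fell with Chaf1a siRNA against the negative control, a called share of 76.9% beside 67.5% of all genes (37.1% raised, 30.4% lowered). The median was -0.07, and with library totals 6 rose and 2 fell with a median of 0.09. The kinase gene Chuk rose by 0.38 (SE 0.05, adjusted p = 1.4e-06) and the subunit gene Nfkb2 by 0.52 (SE 0.09, adjusted p = 2e-05). The subunit gene Nfkb1 was lowered by -0.38 (SE 0.07) and the inhibitor gene Nfkbib by -0.40 (SE 0.08), each with an adjusted p = 0.00011. Against Chaf1a siRNA alone edgeR called 0 of 13 with either pool, beside 10.9% of all genes with si309 and 21.8% with si308. Of the 13, 1 had an unadjusted p under 0.05 with si309 and 2 with si308, and DESeq2 called 0 with si309 and 1 with si308.

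**Figure D5:**
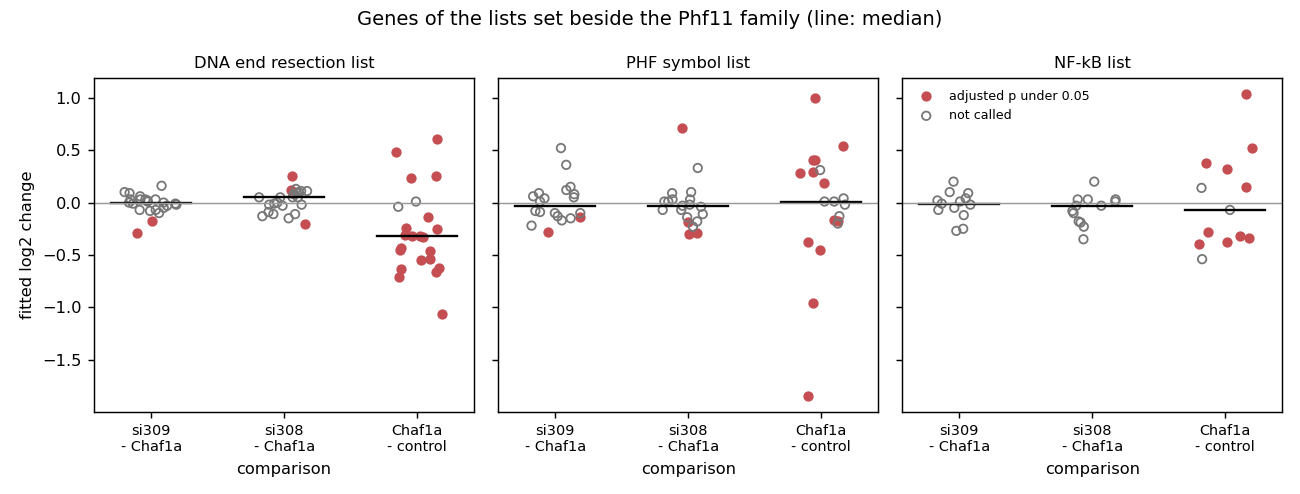
Dots are the fitted log2 changes of the genes on the DNA end resection, PHF symbol and NF-kB lists for si309 minus Chaf1a siRNA, si308 minus Chaf1a siRNA and Chaf1a siRNA minus negative control, filled where the adjusted p was under 0.05; lines are medians. The resection list has a median of -0.32 with Chaf1a siRNA against the negative control, and the other medians lie within 0.1 of 0.

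Genes of like pattern were ranked among 14792 named genes by Pearson correlation of log2(CPM + 0.1) over the 8 libraries, which share groups, so the values describe and do not test. Phf11a was most like Calhm3 (r = 0.9984), Zfp352 (0.9969) and Cpb2 (0.9964). Calhm3 averaged 0.658 CPM with si309, 0.239 with si308, 18.1 with Chaf1a siRNA and 0.1 in the negative control. With log2(CPM + 1) the first ranks for Phf11a went to Kdm4dl, Spz1 and Zfp353-ps instead, so the order among genes of this kind depends on the pseudocount.

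The other members had their own companions. Phf11c was most like Myc (0.9941), a growth regulator at 2.27 CPM with si309, 2.63 with si308, 4.88 with Chaf1a siRNA and 1.27 in the negative control, then Tnrc6b (0.9878) and Srcrb4d (0.9858). Phf11d was most like Elp3 (0.9973), Calcoco2 (0.9957) and Zfp110 (0.9954), all highest in the negative control. Phf11b reached lower values, with Mir3072 (0.9306), Smc1b (0.898) and Trim33 (0.896). The family sum was most like Atl3, Nudt9, Ap3b1, Ube2t, Prpf4, Fbxo5, Cfp and Dhps (0.9938 to 0.9969). Among the members, r over the libraries was 0.88 between Phf11a and Phf11c, -0.57 between Phf11a and Phf11d, and -0.31 between Phf11a and Phf11b.

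For Phf11a the authors' deposited table lists log2 fold changes of 0.64 with si309, -0.01 with si308 and 4.47 with Chaf1a siRNA, each against the negative control. The values with si309 and Chaf1a siRNA lie below the log2 bounds found here, 1.22 and 6.29. Those bounds are ratios of mean CPM to a floor and not the authors' estimates, and the reason for the gap was not tested. For Phf11d the authors' deposited table gives -0.45, -0.47 and -0.52 in the same order, and for Phf11c 0.29, 0.36 and 0.72. For Phf11b the authors' deposited table gives 0.14, 0.15 and -0.06.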

How the data were processed

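Per the submitters' processing notes, Novoalign 2.8, mm10 and DESeq2 were used; the read counter, its annotation and its strand setting are not given in the sources used here. The libraries were stranded and polyA-selected, per the labels' protocols, with paired reads of 125 bases. The authors deposited raw counts per Ensembl gene for each library, regularised log2 values, log2 fold changes against the negative control and adjusted p-values. The 8 columns of regularised values and the authors' p-values were not used here, nor was the deposited table of repeats. Count columns name a group and a number (0 or 1) and were mapped to groups only. Nothing says whether replicates came from separate cultures, so p-values measure the spread between these libraries.

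Counts were fitted with edgeR 4.0.16 in R 4.3.3 (filterByExpr by group, 17970 genes, all 4 members kept; TMM factors; quasi-likelihood F test; 4 residual degrees of freedom over 8 libraries), with Benjamini and Hochberg adjustment over all genes of a contrast. A gene is called, and said to have risen or fallen, at an adjusted p under 0.05. The fit was tested on simulated data. CPM values used the TMM factors, and lengths are exon unions of GENCODE release M21 (GRCm38), which holds 27843 of the 28431 IDs. The floor of a count of 0 was 3 counts per library. Replicates differed by more than sampling noise (chi-square per gene 2.87 to 5.49).

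The members and lists were chosen with earlier results of these data known. Named genes were the members, Chaf1a and the mDux copy, up to 4 tested neighbours on each side of the cluster, up to 4 genes of each list with the smallest adjusted p for Chaf1a siRNA against the negative control and up to 2 for the pools, and the genes of like pattern. Alternatives were DESeq2 1.42.0, its size factors, library totals, no filter, a replicate block, other windows, another pseudocount and leaving out each library.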

Additional observations from a re-analysis of the deposited data

How the results depend on the processing

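Of 213 alternative values that kept all libraries, 192 stayed within 1.5 times (counts) or 1 SD (levels) of the main value. Library totals moved the levels against the negative control and turned the sign of Phf11b with Chaf1a siRNA (0.09 instead of -0.07, both within its SE). They moved the family sum to -0.24 with si309, -0.26 with si308 and -0.20 with Chaf1a siRNA, Phf11c to 0.53, 0.61 and 1.03, and Phf11d to -0.26, -0.28 and -0.33. The median over all genes moved likewise (to 0.22 from 0.06 with Chaf1a siRNA), and the raised share of calls became 69.5% instead of 53.2% with si309, 70.2% instead of 53.2% with si308 and 68.2% instead of 55% with Chaf1a siRNA. Without the filter, 995 genes differed between the pools instead of 661. Of the neighbours, DESeq2 called 0 with si308. Of the PHF genes, DESeq2 size factors, library totals and DESeq2 called 1 each with si309 instead of 2. Of the NF-kB genes, library totals, DESeq2 and the block called 1 each and the fit without a filter 2 with si308 instead of 0, and that fit called 1 with si309.

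Leaving out a library gave, against Chaf1a siRNA alone, 2203 to 4446 called genes with si308 (lowest without Chaf1a siRNA replicate 1), 879 to 2379 with si309 (lowest without si309 replicate 1; 980 without Chaf1a siRNA replicate 1 and 1209 without si309 replicate 0) and 211 to 904 between the pools (211 and 237 without si309 replicates 1 and 0, 373 without si308 replicate 0). List counts ranged from 0 to 1 (si308) and 0 to 2 (si309) for neighbours, 2 to 4 and 0 to 3 for PHF genes, 1 to 3 (si309) for resection genes, and 0 to 2 and 0 to 1 for NF-kB genes. Log2 values ranged from 6.11 to 6.48 for the Phf11a bound, 0.80 to 0.94 for Phf11c with Chaf1a siRNA and 0.29 to 0.39 with si309 against the negative control. Phf11d ranged from 0.02 to 0.09 with si309 against Chaf1a siRNA, and against the negative control from -0.48 to -0.41 with si309 and -0.49 to -0.41 with si308, and the family sum from -0.46 to -0.38 and -0.47 to -0.39. Phf11b ranged across 0 with Chaf1a siRNA (-0.31 to 0.15) and with si308 against the negative control (-0.04 to 0.65).

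With the column number as replicate block, 12088 genes were called with Chaf1a siRNA against the negative control, 3977 with si308 and 1981 with si309, against 12125, 3924 and 1951 without it. Deviations of libraries with the same number correlated at -0.08 to 0.09 between groups. Differences between replicates also hold counting noise, and the labels do not say what the numbers mean. Whether libraries of the same number were handled together is thus not known. The cause of these moves was not tested. Depth limits Phf11b and the low values of Phf11a, where single counts decide the level.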
